A study of Mus musculus with 18 samples.

Results

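The RNA of Mettl3-deficient haematopoietic stem cells (HSCs) that did not stay on an antibody against N6-methyladenosine (m6A) was compared with the input RNA it came from. The members were the 6295 of 23038 genes whose mean over the 6 deposited columns reached 10 RPKM, where RPKM is reads per kilobase of gene per 1e6 reads. For each gene the ratio was log2((unbound RPKM + 1)/(input RPKM + 1)), so a positive value means more in the unbound fraction, and every fold below is on this scale. The stem cells came from C57BL/6 bone marrow, and the Mettl3-deficient group carried Mx1-cre; Mettl3fl/fl. Mx1-cre is switched on by interferon, which pIpC induces, and it acts in many cell types besides HSCs. Mice of both genotypes were given pIpC, 10 µg in each of 5 injections, and were killed 10 days after the last one; their age was not given beyond adult. The 6 libraries compared were 3 of input and 3 of unbound RNA, and the wild-type input and unbound fractions, again 3 libraries each, served as the comparison.

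Mettl3 is the catalytic subunit of the enzyme complex that places m6A on messenger RNA, and reader proteins of the YTH family bind the mark and can speed the decay of the transcript. In HSCs this pathway is known for its part in the choice between self-renewal and differentiation. In an m6A immunoprecipitation, RNA held by the antibody is eluted as the tagged fraction, and RNA that passes is the unbound fraction. Here the unbound fraction was the pooled washes, and the labels' protocols describe no fragmentation of the RNA, so each value belongs to a whole gene and not to a site.

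HSCs were sorted as Lineage-negative Sca1+ cKit+ CD150+ CD48- cells, 3000 per sample, and polyadenylated RNA was amplified by Smart-seq2. Effective depth, worked out from the values, was 9.42, 22.08 and 30.06 M reads (M, 1e6) in the Mettl3-deficient input libraries and 12.24, 13.92 and 27.27 M in the unbound ones. Each column is a mean over its 3 libraries, so the differences below have no replicate check and no p-value is given. Mettl3 itself stood at 19.6 RPKM in Mettl3-deficient and 36.4 RPKM in wild-type input. Reads from exons that stay after the deletion count towards the gene, so this checks the labels in part. All 10 HSC markers looked for were present in Mettl3-deficient input, at 9.45 to 348 RPKM, and the T and B cell markers Cd3e, Cd8a and Ms4a1 were at or under 0.0429 RPKM.

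The unbound fraction differed widely from the input. Of the 6295 genes, 1162 (18.5%) were at least 2-fold higher and 1854 (29.5%) at least 2-fold lower in unbound RNA, and the ratio ran from -4.91 to 2.88. The low side reached further. At 4-fold the counts were 100 higher and 780 lower, and at 8-fold they were 0 and 204. The median ratio was -0.13 and its standard deviation across genes 1.35. The m6A-tagged fraction of the same cells lay much closer to the input, with a standard deviation of 0.44. Scaling the columns by their upper quartile moved the median of all genes to -0.39 and gave 814 genes higher and 2198 lower, so that 27.0% of the 2-fold genes were higher against 38.5% as deposited. Scaling by the median ratio moved the median to 0.03 and that share to 46.1%.

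**Figure D1:**
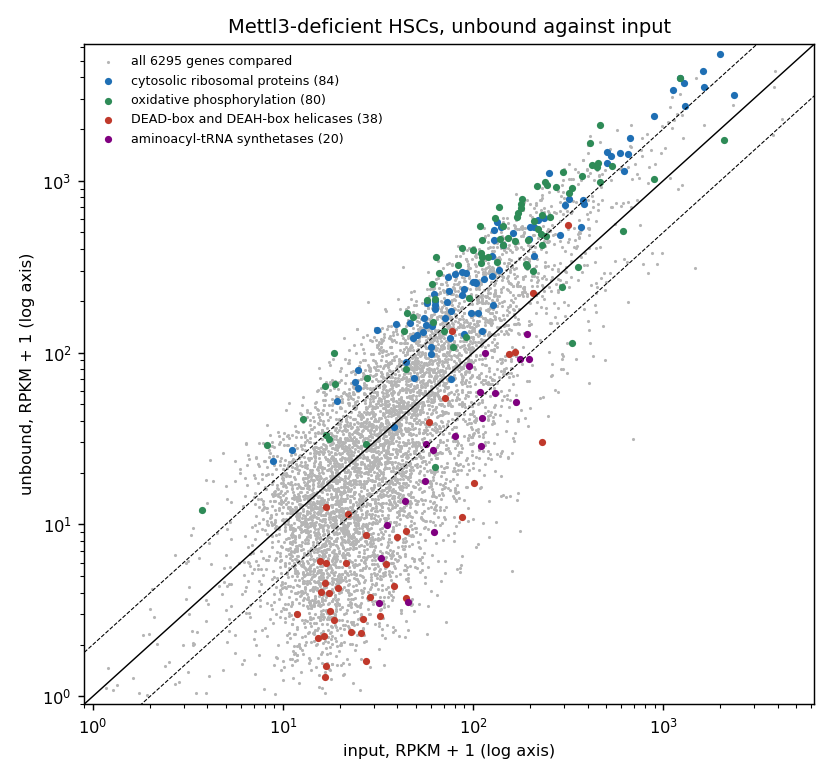
Each point is 1 of the 6295 genes, with the Mettl3-deficient input on the x axis and the unbound fraction on the y axis, both as RPKM + 1 on log axes; the solid line marks equal values and the dashed lines a 2-fold difference. Ribosomal protein genes (blue) and oxidative phosphorylation genes (green) lie mostly above the line, with medians of 1.36 and 1.59 on the log2 scale, and helicases (red) and aminoacyl-tRNA synthetases (purple) mostly below it, with medians of -2.26 and -1.35.

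The genes highest in unbound RNA included a proteasome chaperone, respiratory chain subunits and small membrane proteins. Psmg4 (gene 69666, chr13:34162964-34178172 in GRCm38.p6), a chaperone of proteasome assembly, had 41.7 RPKM in input, 312 RPKM unbound and 46.0 RPKM m6A-tagged. It was 7.34-fold higher in unbound than in input RNA. Hspb11, a small protein of intraflagellar transport, had 27.0 RPKM in input and 195 RPKM in unbound RNA, 7.0-fold more. For both genes the m6A-tagged value stayed near the input and the unbound value stood alone. Tm2d1, a membrane protein gene, followed at 19.9 and 120 RPKM (5.79-fold). The subunit genes Ndufc1 of respiratory complex I (62.4 and 357 RPKM, 5.64-fold) and Atp5md of ATP synthase (17.6 and 98.9 RPKM, 5.36-fold) were among the 12 highest. Pttg1, the securin that holds back separase before anaphase, was at 23.5 RPKM in input and 136 RPKM in unbound RNA. Dpm3, a subunit of dolichol-phosphate mannose synthase, had nearly the same values, 23.6 and 136 RPKM. The cell cycle phosphatase gene Cdkn3, Tmem107, Smim11, Otos and Gm4013 made up the rest, at 5.19-fold to 5.77-fold. Gm4013 (3.13 and 22.8 RPKM) had a mean of 10.27 RPKM, so it passed the minimum through the unbound value it is ranked on. With 5 RPKM added, Gm4013 went from 2.53 to 1.78 and Cdkn3 (3.85 RPKM in input) from 2.42 to 1.76 on the log2 scale. Of genes averaging 100 RPKM or more, Ndufa3 (136 and 699 RPKM), the galectin gene Lgals1 (57.1 and 295 RPKM) and Cox7a2 (108 and 547 RPKM) were 5.03-fold to 5.10-fold higher.

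The genes lowest in unbound RNA included a metabolic enzyme, a kinase and genes of splicing and chromosome condensation. Mat2a (gene 232087, chr6:72432796-72439556), which makes the methyl donor S-adenosylmethionine, had 159 RPKM in input, 4.33 RPKM unbound and 126 RPKM m6A-tagged. Its ratio of -4.91 was the lowest of all. Taok3, a protein kinase gene (chr5:117120111-117275101), had 71.0, 1.71 and 66.6 RPKM in the same order and was 26.6-fold lower. Gbp7, an interferon-induced GTPase gene (chr3:142530336-142550151), had 56.0, 1.31 and 52.3 RPKM and was 24.6-fold lower. In each of the 3 the unbound column alone was far from the others. Sf3b1, the splicing factor that binds the branch point in the U2 particle, had 176 RPKM in input and 120 RPKM m6A-tagged and was 19.3-fold lower in unbound RNA. The condensin gene Smc4 was 19.9-fold lower (42.9 and 1.21 RPKM). The nucleolar gene Rbm28, the chromatin gene Kmt2e, the myosin phosphatase subunit gene Ppp1r12a, the autophagy receptor gene Nbr1 and the Paf1 complex gene Ctr9 were 18.4-fold to 23.5-fold lower. Their unbound values lay between 0.0860 and 1.23 RPKM, so their folds rest on the added 1 RPKM, and with 0.1 RPKM added Rbm28 went from -4.55 to -7.05 on the log2 scale. Of genes averaging 100 RPKM or more, the nucleolin gene Ncl (170 and 12.9 RPKM), Hnrnpu (142 and 13.9 RPKM) and the stem cell factor receptor gene Kit (92.4 and 9.52 RPKM) were 12.2-fold, 9.62-fold and 8.88-fold lower.

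**Figure D2:**
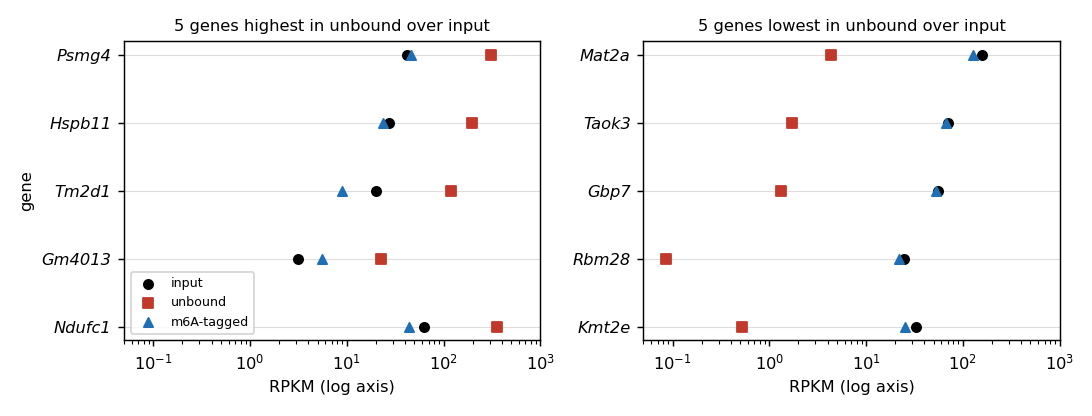
RPKM (log axis) of the 5 genes with the highest (left) and the 5 with the lowest (right) unbound to input ratio in Mettl3-deficient cells, with input as circles, unbound as squares and m6A-tagged as triangles, each a mean over 3 libraries. The square stands apart in every row, from Ndufc1 at 357 RPKM to Rbm28 at 0.0860 RPKM, and the triangles lie nearer to the circles.

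Ribosomal protein genes, whose products build the cytosolic ribosome, were higher in unbound RNA. Of 84 compared (of 88 in the tables), 66 were 2-fold higher and 0 were lower, against 18.5% and 29.5% of all genes, and the median was 1.36. In the deposited values they made up 5.31% of summed RPKM in input, 9.29% in unbound and 2.83% in m6A-tagged RNA. Rps27l led with 251 RPKM in input and 1105 RPKM in unbound RNA (4.40-fold), followed by Rpl35a (30.1 and 134 RPKM), Rps21 (133 and 573 RPKM) and Rplp2, a protein of the ribosomal stalk (128 and 514 RPKM). The m6A-tagged values of Rpl35a, Rps21 and Rplp2 ran from 12.4 to 50.0 RPKM, under the input. Both subunits were alike, with medians of 1.34 over 50 genes of the large and 1.41 over 34 genes of the small subunit. The lowest member was Rpl7l1, a paralog of Rpl7, at -0.13. Ribosomal protein genes have many processed pseudogenes, so reads of single members may be shared with copies.

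Ribosomal protein messengers are known to begin with a C followed by a run of pyrimidines, the 5′ terminal oligopyrimidine tract, so the start sites were read from RefSeq (GRCm38.p6) to see how the genes of this comparison divided. The lines give 10 bases before and 20 bases from the annotated start, on the gene's strand, and capitals mark an unbroken run of C and T that begins with C at the start. The first 5 genes were higher and the last 3, which have no such run, were the lowest of all.
Rpl35a (chr16:33056472-33056501, plus strand): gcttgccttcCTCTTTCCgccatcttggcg
Rps21 (chr2:180257369-180257398, plus strand): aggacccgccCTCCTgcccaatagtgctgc
Rplp2 (chr7:141447641-141447670, plus strand): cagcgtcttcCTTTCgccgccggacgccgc
Rpl38 (chr11:114668570-114668599, plus strand): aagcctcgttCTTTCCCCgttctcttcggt
Rps27 (chr3:90213629-90213658, minus strand): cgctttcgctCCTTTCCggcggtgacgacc
Mat2a (chr6:72439537-72439566, minus strand): ccgccgctccgttcgctccgagtctccagc
Taok3 (chr5:117120119-117120148, plus strand): gctctgcgcagtcgggtgcgattggtcacc
Gbp7 (chr3:142530326-142530355, plus strand): atccggtttcactctggagtttaagaatag

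A start with C and at least 4 further pyrimidines was found for 156 of the 5100 compared genes with an entry (3.06%), and for 3.01% of all 27025 genes in that table. The gene's own strand was searched, at the annotated start alone. Among ribosomal protein genes it was 14 of 62 (22.6%), among genes 2-fold higher 43 of 951 (4.52%) and among genes 2-fold lower 39 of 1498. Within the ribosomal protein genes those with the run had a median ratio of 1.52 and those without 1.34. With ribosomal protein genes left out, the medians were -0.06 over 142 genes with the run and -0.16 over 4896 without it. A start annotated a few bases away hides the run.

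Genes of the respiratory chain and of the mitochondrial ribosome were higher as well. Of 80 compared oxidative phosphorylation genes, 61 were 2-fold higher and 2 lower, with a median of 1.59. All 11 compared genes of complex IV, cytochrome c oxidase, were 2-fold higher, with a median of 1.81, from Cox7a2l at 1.29 to Cox7a2 at 2.33. Complex I had 28 of 37 higher and ATP synthase 14 of 17. The members that were 2-fold lower were Ndufs1, the largest complex I subunit (62.2 and 20.7 RPKM), and Sdha, the flavoprotein of complex II (331 and 112 RPKM). Sdhb, its iron-sulfur partner, was higher (320 and 850 RPKM), so 2 subunits of 1 enzyme lay on opposite sides. Of 79 mitochondrial ribosomal protein genes, 45 were higher and 0 lower, with a median of 1.07. Mrpl52 led with 65.7 RPKM in input and 297 RPKM in unbound RNA, followed by Mrps16 (92.2 and 395 RPKM), Mrps14 and Mrpl42. Of the small nuclear ribonucleoprotein core genes (Sm and LSm proteins that ring the spliceosomal RNAs), 15 of 19 were higher and 0 lower, with a median of 1.38. Snrpe (170 and 621 RPKM), Lsm8 (81.0 and 289 RPKM) and Snrpf (78.5 and 279 RPKM) were 3.52-fold to 3.64-fold higher. Lsm1, which acts in messenger decay, went from 7.92 to 27.3 RPKM. Its mean was 11.04 RPKM, so it passed the minimum through its unbound value.

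The parts of the proteasome differed in their medians. Of its 38 compared genes 21.1% were higher and 5.26% lower, against 18.5% and 29.5% of all genes. Of 18 genes of the core particle, which holds the proteolytic sites, 7 were higher and 0 lower, with a median of 0.87. Of 20 genes of the regulatory particle, which binds and unfolds substrates, 1 was higher and 2 lower, with a median of -0.05. Psmb2 (167 and 587 RPKM) and Psma2 (198 and 633 RPKM) of the core were 3.49-fold and 3.19-fold higher. Psmd1 (139 and 25.1 RPKM) and Psmc6 (138 and 42.3 RPKM), the 2 lower genes of the regulatory particle, were 5.36-fold and 3.22-fold lower. These 4 genes were picked as the largest ratios of the list. In input they lay within 138 to 198 RPKM, and in unbound RNA they ran from 25.1 to 633 RPKM. Long noncoding RNAs kept in the nucleus or hosting small nucleolar RNAs had 9 of 16 higher and 1 lower. The snoRNA hosts Snhg8 (17.1 and 68.3 RPKM), Snhg6 (30.2 and 107 RPKM) and Zfas1 (66.7 and 198 RPKM) were higher. The paraspeckle RNA Neat1 was the lower one (15.6 and 3.57 RPKM).

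Genes of RNA processing and transport were lower in unbound RNA. Of all genes 29.5% were 2-fold lower and 18.5% higher. Of 38 DEAD-box and DEAH-box helicase genes compared (of 54 in the tables), 29 were 2-fold lower (76.3%) and 0 higher. Their median was -2.26, and it was -1.62 with 5 RPKM added and -0.62 with a minimum of 50 RPKM. Ddx3x, which acts in translation initiation, had 26.2 RPKM in input and 0.593 RPKM in unbound RNA, 17.1-fold less. Its Y-linked homolog Ddx3y had 15.6 and 0.299 RPKM, 12.8-fold less. The splicing helicase genes Ddx42 and Dhx38 were 11.8-fold and 11.3-fold lower. Unbound values of Ddx3x, Ddx3y and Dhx38 (0.491 RPKM) were under 1 RPKM, so their folds rest on the added 1 RPKM. The log2 ratio of Ddx3y, -3.68, was -5.30 with 0.1 RPKM added and -1.96 with 5 RPKM added. Of 57 hnRNP and splicing factor genes, 33 were lower and 4 higher, with a median of -1.27. The hnRNP genes ran from Hnrnpu at -3.27 to Hnrnpa1 at 0.26, and 10 of 16 were 2-fold lower. Srrm2, a large scaffold of nuclear speckles, was 13.9-fold lower (46.9 and 2.44 RPKM), and Prpf38b 11.7-fold. Srsf9, the SR protein highest in unbound RNA, had 30.9 and 104 RPKM. Of 27 nuclear pore and transport genes, 19 were lower and 3 higher, with a median of -1.62 (-0.71 with a minimum of 50 RPKM). The importins Ipo7 (23.4 and 1.27 RPKM) and Ipo5 (47.7 and 5.11 RPKM), the exportin Xpo5 and the importin alpha gene Kpna4 were 7.97-fold to 10.8-fold lower.

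Genes of the enzymes that load transfer RNAs all lay on the low side. Of 20 aminoacyl-tRNA synthetase genes, all of those in the tables, 14 were 2-fold lower, 0 were higher and 20 of 20 lay below 0. Eprs, the fused glutamyl and prolyl enzyme, had 44.6 RPKM in input and 2.54 RPKM in unbound RNA (12.9-fold), and Iars 31.1 and 2.51 RPKM (9.14-fold). Tars and Cars were 6.95-fold and 5.12-fold lower. The median of this list was -1.35 here and 0.11 in wild-type cells. Of 57 translation factor genes, 11 were higher (19.3%) and 15 lower (26.3%), shares near the 18.5% and 29.5% of all genes. The scaffold subunit genes Eif3a (63.6 and 2.88 RPKM) and Eif4g1 (26.5 and 2.74 RPKM) were 16.7-fold and 7.36-fold lower. Eif4ebp1, which holds back cap-dependent initiation, was the highest of the list (208 and 689 RPKM). The list was built by name and includes Eif2ak2 and Eef2k, kinases that restrain translation, which were 9.95-fold and 5.27-fold lower. Its median was 0.17, and it was -0.10 with upper-quartile scaling and -0.02 with no minimum. Chaperone genes had 6 of 40 higher (15.0%) and 17 lower (42.5%), with a median of -0.82. Hsp90aa1 (131 and 9.34 RPKM), Hsph1, Hsp90b1 (193 and 36.3 RPKM) and Hspa4 were 4.75-fold to 12.7-fold lower, and Hspe1, the small mitochondrial cochaperonin, had 78.2 and 250 RPKM.

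Of 57 DNA replication and mitosis genes, 8 were higher (14.0%) and 18 lower (31.6%), shares near the 18.5% and 29.5% of all genes. The list had a median of -0.29 that became 0.21 when genes with a mean under 50 RPKM were left out. The condensin and cohesin core genes were together at the low end, Smc4 at -4.31, Smc1a (84.8 and 4.31 RPKM) at -4.01, Smc2 at -3.96 and Smc3 (45.9 and 2.57 RPKM) at -3.72. Pttg1 and Cdkn3, named above, stood at 2.48 and 2.42. The list of MYC targets, in which ribosome production genes prevail, had 13 of 56 higher (23.2%) and 22 lower (39.3%). The nucleolar proteins Tcof1 (50.7 and 2.42 RPKM), Ncl, Mybbp1a (156 and 13.7 RPKM) and Nolc1 were 10.2-fold to 15.1-fold lower. The median was -0.33, and 0.03 with a minimum of 50 RPKM. Glycolysis genes had 2 of 18 higher (11.1%) and 6 lower (33.3%), with a median of -0.13 that turned to 0.03 under median-ratio scaling and to 0.31 with a minimum of 50 RPKM. The hexokinase genes Hk1 (61.7 and 8.92 RPKM) and Hk3 and the phosphofructokinase gene Pfkp were lower, and Gapdh had 55.5 and 137 RPKM. The 6 compared genes of giant cytoskeletal and scaffold proteins were all 2-fold lower, with a median of -2.84. It was -3.51 with 0.1 RPKM added, -1.76 with 5 RPKM added and -1.50 with no minimum. Tln1, the integrin adaptor talin, had 58.7 RPKM in input, 3.09 RPKM unbound and 85.7 RPKM m6A-tagged. Tpr, Chd4 and Dock2 were 6.91-fold to 7.90-fold lower.

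**Figure D3:**
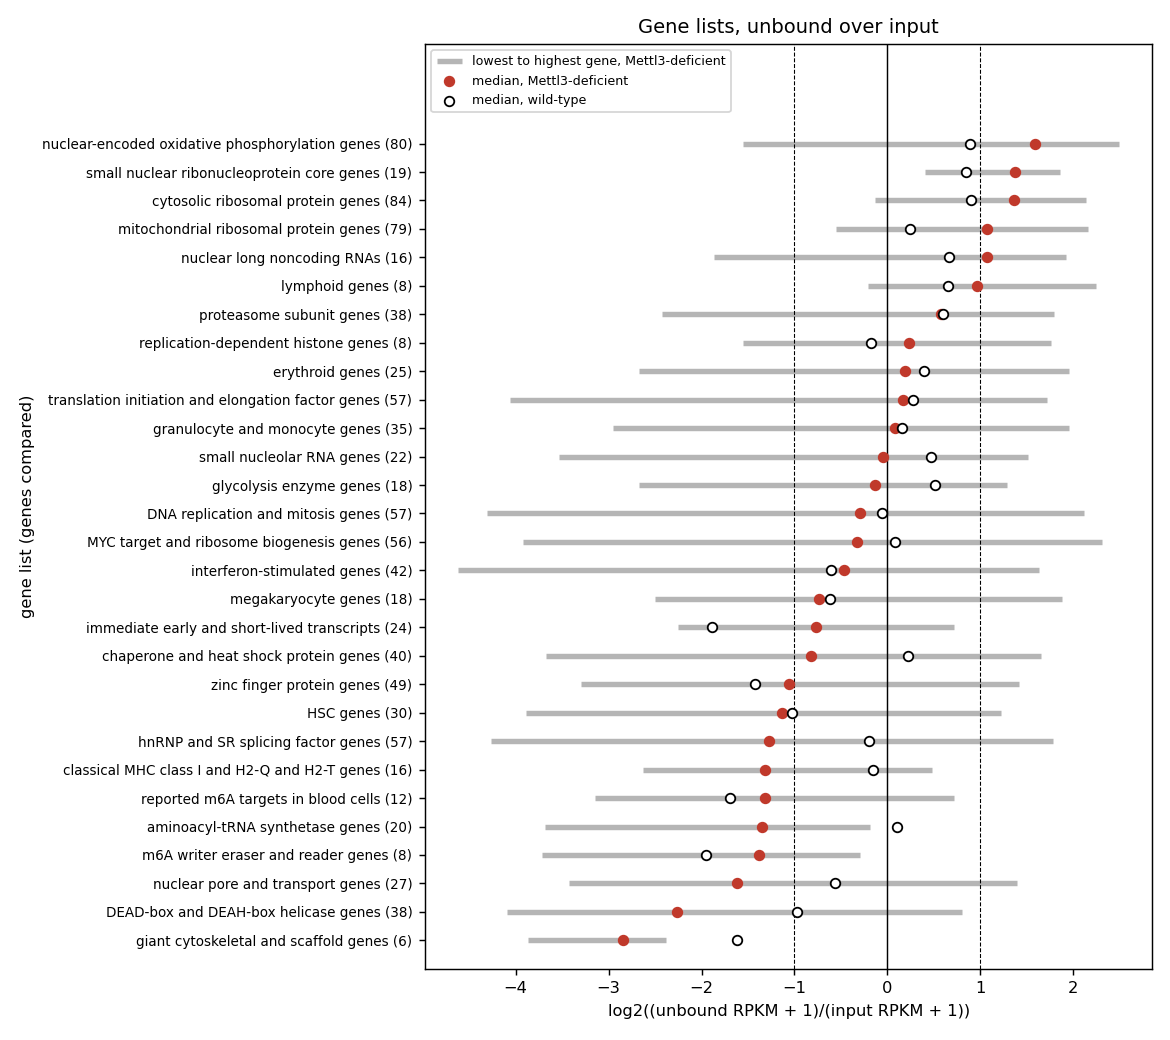
Median log2 ratio of unbound to input in Mettl3-deficient (filled) and wild-type (open) cells for each list with at least 5 genes compared; grey bars run from the lowest to the highest gene in Mettl3-deficient cells, dashed lines mark 2-fold, and the number compared is in brackets. Oxidative phosphorylation genes stand at the top (1.59 and 0.89) and giant scaffold genes at the bottom (-2.84 and -1.62), and the aminoacyl-tRNA synthetases have medians of -1.35 and 0.11.

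Genes that mark stem cells were mostly lower. Of 30 HSC genes compared (of 41 in the tables), 16 were 2-fold lower (53.3%) and 2 higher (6.67%), against 29.5% and 18.5% of all genes. Their median was -1.13 (-0.46 with a minimum of 50 RPKM). Angpt1, the ligand of the Tie2 receptor, had 84.9 RPKM in input, 4.79 RPKM unbound and 57.5 RPKM m6A-tagged and was 14.8-fold lower in unbound RNA. Tek, which encodes Tie2 itself, was 8.97-fold lower (21.2 and 1.48 RPKM), and the ETS factor gene Erg 12.2-fold (54.7 and 3.56 RPKM). Among the sort markers, Kit (cKit) and Slamf1 (CD150) were 8.88-fold and 6.13-fold lower, and Ly6a (Sca1) was 2.16-fold higher (348 and 751 RPKM). Gata2 stood at -0.23 and Procr at 0.48. The fractions are made from the RNA of the same cells, so these values do not count cells. In bulk RNA fewer cells of a type and less RNA per cell cannot be told apart.

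The writers, erasers and readers of m6A lay on the low side. Mettl3 was at 19.6 RPKM in input and 11.2 RPKM in unbound RNA, a ratio of -0.75. Of the 8 compared genes of this list, 5 were 2-fold lower (62.5%) and 0 higher, against 29.5% and 18.5% of all genes. The median of the list was -1.38, and in wild-type cells 5 of the 8 were lower too. Ythdc1, the nuclear reader, was 13.2-fold lower (40.7 and 2.16 RPKM). The cytoplasmic readers Ythdf2 (66.7 and 21.0 RPKM), Ythdf3 (14.9 and 4.07 RPKM) and Ythdf1 (19.7 and 8.35 RPKM) were 3.07-fold, 3.13-fold and 2.21-fold lower. Hnrnpa2b1 was 3.62-fold lower (413 and 113 RPKM) and Hnrnpc stood at -0.29. Mettl16, which methylates the Mat2a transcript, had 30.7 and 14.8 RPKM. Under the minimum mean, the writer subunits Zc3h13 and Virma were at -3.06 and -2.36, and Mettl14, Wtap and Rbm15 at -1.72, -0.76 and -0.57. The erasers Fto and Alkbh5, under the minimum too, were at -1.42 and -1.19.

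Transcripts reported by others as m6A targets in blood cells had 8 of 12 lower (66.7%) and 0 higher, with a median of -1.32. Of all genes 29.5% were lower and 18.5% higher, and in wild-type cells 8 of the 12 transcripts were lower too. Besides Kit, Stat5a (31.8 and 3.81 RPKM), Mybl2 (13.0 and 1.81 RPKM) and Egr1 (10.6 and 2.04 RPKM) were 3.82-fold to 6.83-fold lower. Myc was at 48.0 RPKM unbound and 137 RPKM m6A-tagged, and its unbound to input ratio was -1.02. Immediate early and short-lived transcripts, which share Myc and Egr1 with that list, had 8 of 24 lower and 0 higher, with a median of -0.77. The lower share, 33.3%, was near the 29.5% of all genes, of which 18.5% were higher. Jun (46.0 and 8.92 RPKM), Socs2 (56.4 and 19.4 RPKM) and Mcl1 (15.0 and 4.75 RPKM) were 2.79-fold to 4.74-fold lower, and Junb was at -0.16. Zinc finger protein genes had 25 of 49 lower and 2 higher, with a median of -1.06. Most of this family was too low to compare, 49 of 390 genes passing the minimum. With a minimum of 50 RPKM the median of the list was 0.24, above 0. Zfp263 (16.6 and 0.791 RPKM) and Zfp869 (21.0 and 1.56 RPKM) were 9.85-fold and 8.58-fold lower. The fold of Zfp263 rests on the added 1 RPKM.

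Interferon-stimulated genes lay on both sides, 18 of 42 lower (42.9%) and 4 higher (9.52%), against 29.5% and 18.5% of all genes. Their median was -0.47 (0.16 with a minimum of 50 RPKM and -1.20 with none). Besides Gbp7, Stat2 (19.1 and 0.515 RPKM), which carries the interferon signal to the nucleus, and Iigp1 were 13.3-fold and 10.4-fold lower. The fold of Stat2 rests on the added 1 RPKM. The small membrane protein gene Ifitm3 had 1253 RPKM in input and 2394 RPKM in unbound RNA. Of 16 genes of MHC class I, 10 were lower and 0 higher. All 8 compared H2-Q genes, nonclassical members of the family, were 2-fold lower, with a median of -2.03. H2-Q9 had 924 RPKM in input, 328 RPKM unbound and 397 RPKM m6A-tagged, and H2-Q1 had 198, 46.5 and 44.1 RPKM. For these genes the input stood above both fractions. H2-K1 and H2-D1, the classical genes, were at -1.03 and -0.88, and their partner B2m at 0.16. The H2-Q genes are near copies of each other, so how reads were divided among them is uncertain.

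Genes of other blood lineages were also described, since the sort gate excludes mature cells. Of 35 granulocyte and monocyte genes, 10 were higher (28.6%) and 6 lower (17.1%), against 18.5% and 29.5% of all genes. Their median was 0.08 (-0.09 with upper-quartile scaling). Prg2 (5.52 and 24.3 RPKM), the eosinophil major basic protein gene, Elane (36.8 and 130 RPKM) and S100a8 (233 and 545 RPKM) were higher. Csf2rb (24.4 and 2.29 RPKM), Ltf (58.5 and 9.48 RPKM) and Csf3r (34.0 and 5.94 RPKM) were lower. Receptors and granule contents of 1 lineage thus lay on both sides of 0. Of 18 megakaryocyte genes, 2 were higher (11.1%) and 8 lower (44.4%), with Pf4 (79.9 and 296 RPKM) at 1.88 and Fli1 (71.1 and 11.7 RPKM) at -2.50. Of 25 erythroid genes, 7 were higher and 2 lower, with a median of 0.19 (-0.03 with upper-quartile scaling). The metallothionein gene Mt1 (15.3 and 62.4 RPKM) and Hba-a2 were higher and Gypc (40.3 and 5.49 RPKM) lower. Of 8 lymphoid genes, 4 were higher and 0 lower, among them Nkg7 (46.2 and 223 RPKM), Ccl5, H2-Ab1 (293 and 944 RPKM) and H2-Aa. The summed level of the 10 granulocyte and monocyte markers was 892.4 RPKM in input and 1420 RPKM in unbound RNA. In wild-type cells it was higher, 5062 and 7308 RPKM. The sum over all genes in the tables also rose in Mettl3-deficient cells, from 475614 RPKM in input to 665704 RPKM in unbound RNA. The part of these lineage genes in the results above was not tested.

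Small nucleolar RNAs are carried in the introns of host genes. Of 22 such genes, 5 were higher (22.7%) and 6 lower (27.3%), shares near the 18.5% and 29.5% of all genes. Their median of -0.05 turned to 0.10 under median-ratio scaling and to 0.01 with no minimum. Snord69 (29.6 and 1.65 RPKM), Snord2 (12.2 and 1.07 RPKM), Snord57 and Snord37 were 5.24-fold to 11.5-fold lower. These genes are shorter than a read, and reads of the host transcript can count towards them. Of 8 histone genes, 2 were higher and 2 lower (25.0% each, against 18.5% and 29.5% of all genes). H2ac23 and H2ac13 were at 1.76 and 1.30 and H2bc8 and H1f2 at -1.55 and -1.12. By class of gene, 34 of 81 long noncoding RNA genes were higher and 7 lower, with a median of 0.71, against -0.15 over 6146 protein-coding genes.

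The unbound and the tagged fraction were not mirror images of each other. Of all compared genes, 1090 (17.3%) lay above input in unbound and below it in m6A-tagged RNA, and 2067 (32.8%) the other way round. Both fractions were below input for 1333 (21.2%) and above it for 1805 (28.7%). Of the 1162 genes 2-fold higher in unbound RNA, 541 (46.6%) were below input in m6A-tagged RNA, and of the 1854 genes 2-fold lower, 989 (53.3%) were above it. The median m6A-tagged to input ratio was 0.03 for the higher and 0.03 for the lower genes. Both ratios share the input column, so no correlation between them is given. Input was 2-fold above both fractions for 12 genes (0.191%), led by 7 H2-Q genes and followed by Snord69. It was 2-fold below both for 6 (0.0953%). These were Abhd17c (5.30 RPKM in input, 13.7 in unbound and 14.3 in m6A-tagged RNA), Prxl2b, Phlda2, Macrod1, Tubg1, which nucleates microtubules, and Tmed9 (107, 263 and 215 RPKM).

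The ratio went with the level and with the genomic span of the gene. Of 1188 genes averaging 100 RPKM or more, 513 (43.2%) were higher and 99 (8.33%) lower. Of 1811 genes with a mean of 10 to 20 RPKM, 124 (6.85%) were higher and 821 (45.3%) lower. The Spearman correlation with mean RPKM, taken over genes and not over replicates, was 0.41, and that mean includes both columns of the ratio. With genomic span it was -0.47 over 6288 genes. In the 5 span groups, from the shortest (0.0530 to 5.83 kb) to the longest (37.7 to 1037 kb), the median ratio was 0.79, 0.22, -0.16, -0.69 and -1.17. The share 2-fold higher was 41.7% in the shortest and 4.85% in the longest group, and the share 2-fold lower 8.03% and 54.8%. Longer genes were less abundant (Spearman -0.29). The correlation with span was -0.40, -0.42 and -0.41 among genes of 10 to 20, 20 to 50 and at least 50 RPKM. These bands are cut on the mean that includes both columns of the ratio. The part of level in the correlation with span was not tested. Some lists divided in the same way. The 8 higher genes of the replication and mitosis list had a median span of 7.89 kb and the 18 lower ones 30.6 kb, and for translation factors these were 10.5 and 23.4 kb. In the small nucleolar RNA list they were 0.0630 and 0.0640 kb. Span includes introns, and transcript length was not used here.

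**Figure D4:**
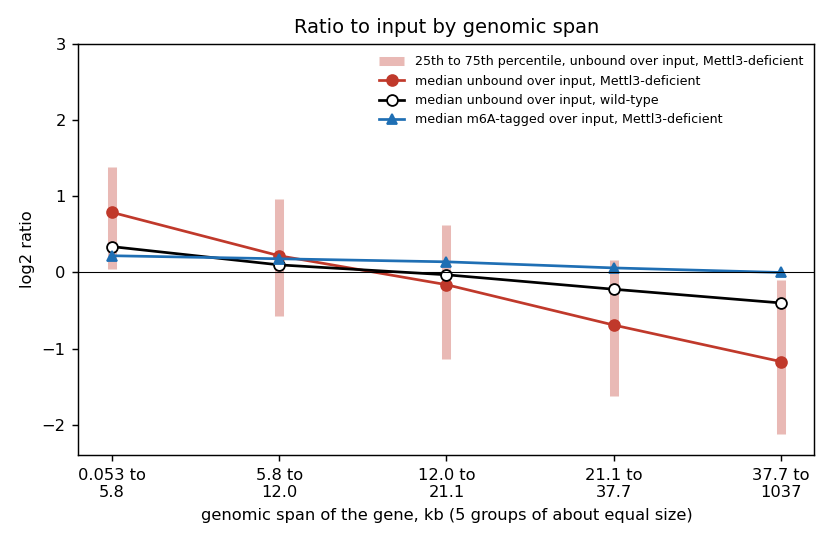
Median log2 ratio to input in 5 groups of genes by genomic span (x axis, kb), for unbound RNA of Mettl3-deficient cells (red, with bars from the 25th to the 75th percentile), unbound RNA of wild-type cells (open circles) and m6A-tagged RNA of Mettl3-deficient cells (triangles). The Mettl3-deficient unbound median goes from 0.79 to -1.17, the wild-type one from 0.34 to -0.40 and the m6A-tagged one from 0.22 to 0.00.

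Wild-type cells were compared in the same way, from libraries of their own. In them 290 genes (4.61%) were 2-fold higher and 1604 (25.5%) lower in unbound RNA, and 0 were 4-fold higher, against 100 in Mettl3-deficient cells. Set against each other over the 6295 genes, the 2 ratios had a Pearson r of 0.59 and a Spearman rho of 0.66, as a description with no p. Of the genes higher in Mettl3-deficient cells, 249 were higher in wild-type cells too, 21.4% of the first and 85.9% of the second list. Of the lower genes, 917 were shared, 49.5% and 57.2%. The correlation with span, -0.47 above, was -0.20 in wild-type cells. For ribosomal protein genes the medians were 1.36 and 0.90, for mitochondrial ribosomal protein genes 1.07 and 0.24 and for helicases -2.26 and -0.97, each farther from 0 without Mettl3. For immediate early transcripts (-0.77 and -1.89), reported m6A targets (-1.32 and -1.69) and m6A regulators (-1.38 and -1.95) the wild-type median was the lower one. Gene by gene, 22 of 24 immediate early transcripts and 9 of 12 reported targets had the lower ratio in wild-type cells. The m6A regulators were evenly split, 4 on either side, with a median genotype difference of 0.01. The difference between the genotypes was at least 2-fold for 1184 genes (18.8%) on the higher and 1067 (16.9%) on the lower side. No test of these differences could be made from 1 value per group.

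Genes relatively highest in Mettl3-deficient unbound RNA had at most 3.91 RPKM in the wild-type unbound fraction. Tmem251 had 28.6 RPKM in input and 46.6 RPKM in unbound RNA of Mettl3-deficient cells, and 28.5 and 0.372 RPKM in wild-type cells. Rpp38, a subunit of ribonuclease P, had 24.3 and 32.5 RPKM, and 23.2 and 0.222 RPKM in wild-type cells. Nup62, a central protein of the nuclear pore, had 100 and 41.6 RPKM, and 61.7 and 0.341 RPKM in wild-type cells. The input columns of Tmem251 and Rpp38 were close, and that of Nup62 was higher without Mettl3. In each of the 3 the wild-type unbound value was under 1 RPKM. Mrm3, Grwd1, Nrros, Mfsd5 (3.91 RPKM) and Tefm made up the leading 8, at differences of 18.8-fold to 22.2-fold. On the other side, Plcg2, which signals from immune receptors, had 120 and 7.42 RPKM, and 102 and 81.9 RPKM in wild-type cells. Ddx3x had 21.5 and 14.2 RPKM in wild-type cells and Ddx3y 14.5 and 11.4 RPKM. Their Mettl3-deficient unbound values were under 1 RPKM, so the sizes of these differences rest on the added 1 RPKM. The thioredoxin reductase gene Txnrd1, Sdccag8, Diaph1 and the ubiquitin ligase gene Nedd4 (112 and 9.16 RPKM against 119 and 107 RPKM) were also among the lowest. Kit had 165 RPKM in input and 138 RPKM in unbound RNA of wild-type cells, close to each other. The readers lay on both sides. Ythdf3 had 17.3 and 0.385 RPKM and Ythdf2 32.4 and 2.38 RPKM in wild-type cells. The differences of Ythdf3, Ythdf2 and Ythdf1 were 4.22-fold, 3.21-fold and 2.61-fold on the higher side. Those of Ythdc1, Hnrnpa2b1 and Hnrnpc were 2.75-fold, 3.15-fold and 1.72-fold on the lower side.

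**Figure D5:**
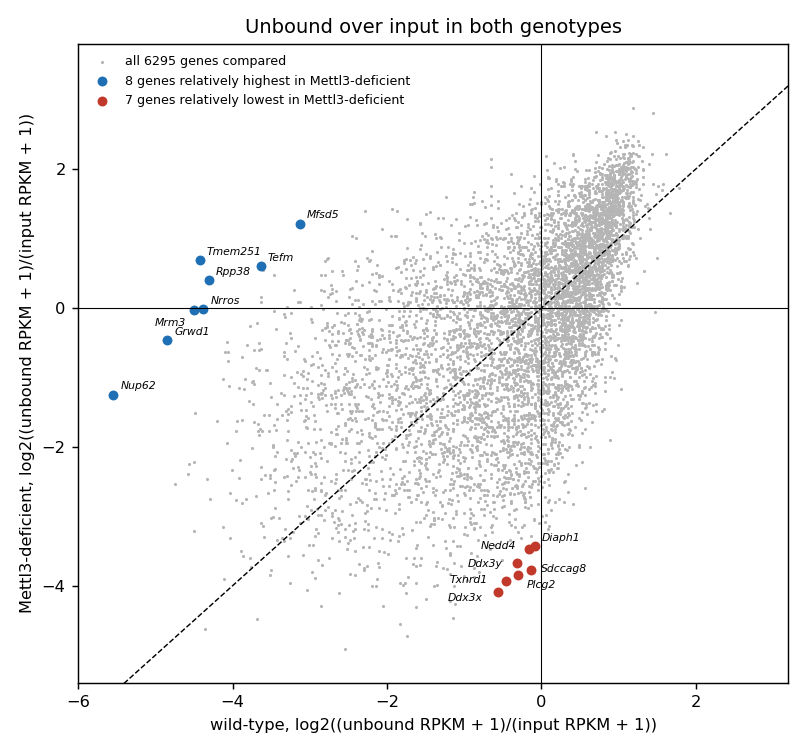
Log2 ratio of unbound to input in wild-type (x axis) and Mettl3-deficient cells (y axis) for the 6295 genes, with 8 genes of the largest difference on the higher and 7 on the lower side in colour and the dashed line where both are equal. Tmem251 lies at -4.43 and 0.69, Ddx3x at -0.56 and -4.09, and the Pearson correlation across genes is 0.59.

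Reads of single libraries could be worked out for 8 members, whose length follows from a column without reads. Libraries are given by falling depth, which says nothing of their replicate numbers. Mns1, a gene of sperm flagella and meiosis, had 606, 203 and 133 reads in the input libraries and 0 in each unbound library. The complement gene C3 had 109, 77 and 65 reads in input and 0 in each unbound library, and Hsd11b1 53, 22 and 6 reads in input and 0 in unbound. A count of 0 over the group allows up to 3 reads, and this covers counting error alone. Ftsj2, a mitochondrial rRNA methyltransferase gene now named Mrm2, had 469, 472 and 126 reads in input and 88, 82 and 114 in unbound RNA. The matricellular gene Nov had 37, 0 and 944 reads in unbound RNA, so 1 library made up most of its value. Cst7, which encodes the protease inhibitor cystatin F, had 79, 183 and 12 reads in input and 208, 34 and 0 in unbound RNA, and the groups overlap. The reads of Mir1896 were 29, 24 and 3 in input and 0 in unbound RNA, and those of Mir1901 18, 21 and 6 against 0, 12 and 7.

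The same could be done for low genes, which were selected for having no read in at least 1 column. Nearly all lay outside the comparison, but some of the 8 members above were counted among them. Of 208 such genes averaging 20 to 100 reads in unbound RNA, 50% had at least 90% of their depth-scaled reads from 1 library and 17.3% had reads in all 3. In input it was 11.9% and 65.9% of 646 genes. Of 418 low genes with reads in both fractions, every unbound library lay below every input library for 86 (20.6%) and above for 12 (2.9%). Genes without a read in any library of a column numbered 10219 in unbound and 8540 in input RNA, at a total depth that was lower in unbound RNA. How far reads from 1 library made up the values of the 6295 genes was not tested.

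The authors' deposited table carries a note on 3 genes in this genotype. By the note Cst7 and Chchd2 differed significantly between m6A-tagged and input RNA but not between unbound and input RNA, and Rps14 went in opposite directions in the 2 comparisons. Chchd2, a regulator of mitochondrial respiration, had 284 RPKM in input, 750 RPKM unbound and 92.2 RPKM m6A-tagged, so its column means lay 2.63-fold above and 3.06-fold below input. Cst7 had 4.18, 3.47 and 0.0342 RPKM. Rps14 had 1219, 3934 and 433 RPKM, 3.23-fold above input in unbound and 2.81-fold below it in m6A-tagged RNA.

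At the edge of the minimum, Topbp1, Tgtp1 and Tbc1d22b were the last genes inside it, with means of 10.00 to 10.01 RPKM and ratios of -2.56, -0.85 and -2.28. The first outside it were 1700113A16Rik, Cpne8 and Pom121, with means of 9.990 to 9.996 RPKM and ratios of 0.98, 0.03 and -0.70.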

How the data were processed

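The 18 libraries form 6 groups of 3, by genotype and fraction. The authors deposited 2 tables of RPKM, 1 per genotype, with 1 column per fraction; mm10, Picard and edgeR are named, with no versions, per the submitters' processing notes. Neither aligner nor counter was given in the sources used here, and the preparation does not mark strand, so overlapping genes cannot be told apart. The deposited values show that each column is the mean over 3 libraries of reads plus 1 per length and depth. A planned limma test for the case of 1 column per library could therefore not be run. Rows under the tables that name no gene were left out.

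Ratios were log2 with 1 RPKM added, over genes averaging 10 RPKM or more in the 6 columns, with 2-fold as the threshold on either side. Adding 1 RPKM understates the change of low genes. Gene IDs were matched to RefSeq (GRCm38.p6) for 6288 of 6295 genes, and current symbols were used. Library reads were solved for genes whose length follows from a read-free column, 11098 of 11300 values in input and 11265 of 11310 in unbound RNA. On simulated columns of 23038 genes, 99.991% and 99.932% of the solutions were the simulated reads. The genes and lists were chosen with earlier results of these data known. Genes named are the 12 highest and 12 lowest, the 6 highest and lowest averaging 100 RPKM or more, the 4 largest ratios of each list, the 8 largest genotype differences on each side, the 8 inputs farthest above and below both fractions, m6A regulators, cell type markers and genes with solved reads. Rpl38 and Rps27 (shown for their starts), the ends of subgroups, and Sdhb, Gapdh, Hspe1, Junb, Myc, Ifitm3, B2m, H2-K1 and H2-D1 were added after their values were seen. Some genes that these rules name are not reported here. Mitochondrially encoded genes had 0 members in the tables, and endothelial and stromal genes 2 compared, Pecam1 at -1.80 and Emcn at -0.20. Alternatives were 0.1 or 5 RPKM added, no minimum or one of 50 RPKM, and 2 scalings of the columns. Python 3.11.15, pandas 2.3.3, numpy 2.4.6, scipy 1.17.1, numba 0.67.0 and matplotlib 3.10.9 were used.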

Additional observations from a re-analysis of the deposited data

How the results depend on the processing

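The 1162 genes higher in unbound RNA numbered 797 to 1420 under the 6 alternatives. The genes compared were 6295 as reported, 2411 with a minimum of 50 RPKM and 23038 with none, so a like count is not a like share. With a minimum of 50 RPKM, 797 genes were higher and 347 lower, so the higher genes were then the more numerous. With no minimum, 1394 were higher and 4391 lower, against 1162 and 1854 as reported. With the same 2 settings, genotype differences on the higher side became 377 and 2147, and on the lower side 306 and 1748, since fewer or more genes were counted. Genes with input above both fractions (12) numbered 19 with median-ratio scaling and 20 with upper-quartile scaling, 6 with a minimum of 50 RPKM and 50 with none. Genes with input below both (6) numbered 17 with 0.1 RPKM added, 0 with 5 RPKM added, 2 with upper-quartile scaling, 2 with a minimum of 50 RPKM and 22 with none. The median of zinc finger protein genes turned from -1.06 to 0.24 with a minimum of 50 RPKM, which leaves fewer genes. Of 159 named ratios, 24 moved with 0.1 RPKM added and 64 with 5 RPKM added. The correlation with span kept its sign in all 6. No paired analysis was possible because the columns pool the replicates and carry no replicate number, and for the same reason leaving out each replicate was not run. Of the genes compared, 4 had no unbound read, and the reads behind most other unbound values are unknown.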
